A study of Rattus norvegicus with 9 samples.

Results

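The transforming growth factor-beta (TGF-beta) ligands Tgfb1, Tgfb2 and Tgfb3, their receptors Tgfbr1, Tgfbr2 and Tgfbr3, the activin beta subunits Inhba and Inhbb, and the intracellular mediators Smad3 and Smad7 were examined in rat prostates. These 10 genes were found through the RefSeq accession of each probe, which gave 13 probes of the 30356 probes used and 10 of the 15163 gene symbols on the array. Tgfb2, Tgfbr2 and Inhbb, 3 of the members, were covered by 2 probes each.

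Total RNA from prostates of 9 male Sprague Dawley rats, 3 per group, had been hybridized to Agilent one-colour arrays. The rats had been bought at an age of 6 weeks. Rats of the sham group underwent a sham operation in place of castration and received corn oil under the skin and distilled water by gavage. In the benign prostatic hyperplasia (BPH) group, rats were castrated, received dihydrotestosterone (3 mg/kg daily for 4 weeks) and got distilled water by gavage. Rats of the BPH+ghrelin group were castrated and received the same androgen, together with rat ghrelin by gavage (20 nmol/kg daily for 2 weeks, begun 2 weeks after the start of the androgen). One legend of the study names another dose and route of ghrelin. Castration and androgen were given together, so that their parts in a difference between BPH and sham cannot be told apart. BPH in this model is driven by a supplied androgen, and the whole prostate was taken. In such bulk tissue, fewer cells of a type and less RNA per cell cannot be told apart.

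TGF-beta ligands are secreted in a latent form and are stored in the extracellular matrix until they are activated. Active ligand joins the type II receptor Tgfbr2 with the type I receptor Tgfbr1, which phosphorylates Smad2 and Smad3. These form complexes with Smad4 and regulate transcription in the nucleus, and among the induced genes is Smad7, which blocks the receptor as a negative feedback. Activins, dimers of the subunits encoded by Inhba and Inhbb, signal through receptors of their own to the same Smads. In the prostate, TGF-beta is known as an inhibitor of epithelial growth and as a promoter of differentiation and matrix synthesis in stromal cells. Its expression in the rat ventral prostate is known to increase after castration.

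Values are log2 signals after quantile normalization over the 9 arrays. Raw signals had a 75th percentile between 327 (sham replicate 2) and 1065 (BPH replicate 1). The share of probes well above background was 61.4% on sham replicate 2 and no lower than 69.5% on the other arrays. In each group, the values of 1 array lay between those of the other 2 for most of 21477 probes, at 74.1% in sham replicate 3, at 71.8% in BPH replicate 2 and at 69.5% in BPH+ghrelin replicate 2, where an even share would be 33.3%. Tests treat the 3 arrays of a group as independent, and results are therefore also given without these 3 arrays. The 3 BPH arrays and BPH+ghrelin replicate 1 had been scanned together, as had BPH+ghrelin replicates 2 and 3 and sham replicates 1 and 2, while sham replicate 3 was scanned separately. No scan held BPH and sham arrays, so that scan and group cannot be told apart in that comparison. In BPH+ghrelin against BPH, only BPH+ghrelin replicate 1 shared a scan with BPH arrays.

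The labelled tissue was examined with marker genes. Of 11 genes of secretory prostate epithelium, 9 could be used, and their mean log2 signal was 13.56 to 13.83 in sham, 11.21 to 12.65 in BPH and 11.19 to 11.72 in BPH+ghrelin. Genes of the seminal vesicle and coagulating gland, which adjoin the prostate, had means of 8.84 to 9.98 in sham (5 of 6 genes), 5.22 to 8.06 in BPH and 4.64 to 6.80 in BPH+ghrelin. Smooth muscle genes (9 of 10) were at 8.77 to 9.61 in sham, 9.13 to 9.70 in BPH and 8.59 to 8.97 in BPH+ghrelin. Fibroblast genes (8 of 10) had ranges of 9.07 to 10.14, 9.97 to 10.35 and 9.48 to 9.89 in the same order. Macrophage genes (10 of 10) ranged from 9.17 to 9.40 in sham, from 9.30 to 9.62 in BPH and from 8.91 to 8.99 in BPH+ghrelin. The 5 usable endothelial genes of 8 ranged from 6.73 to 6.86, from 6.56 to 6.90 and from 6.12 to 6.33. Basal epithelium genes (4 of 6) ranged from 9.39 to 9.72 in sham, from 10.03 to 10.18 in BPH and from 9.92 to 10.05 in BPH+ghrelin, and T and B cell genes (3 of 8) from 7.14 to 7.61, from 6.75 to 6.91 and from 6.59 to 6.79. Thus macrophage and endothelial means on the BPH+ghrelin arrays did not overlap with those on the other arrays, as the plot of marker lists shows. By the log2 of summed signals, macrophage genes overlapped (15.355 to 15.764 in BPH+ghrelin, 15.527 to 15.603 in sham). Endothelial sums overlapped with BPH (9.63 to 9.86 in BPH+ghrelin, 9.77 to 10.39 in BPH). Of the 9 secretory genes, 3 were higher and 6 lower in BPH than in sham. The part of these cell types in the differences described here was not tested.

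**Figure D1:**
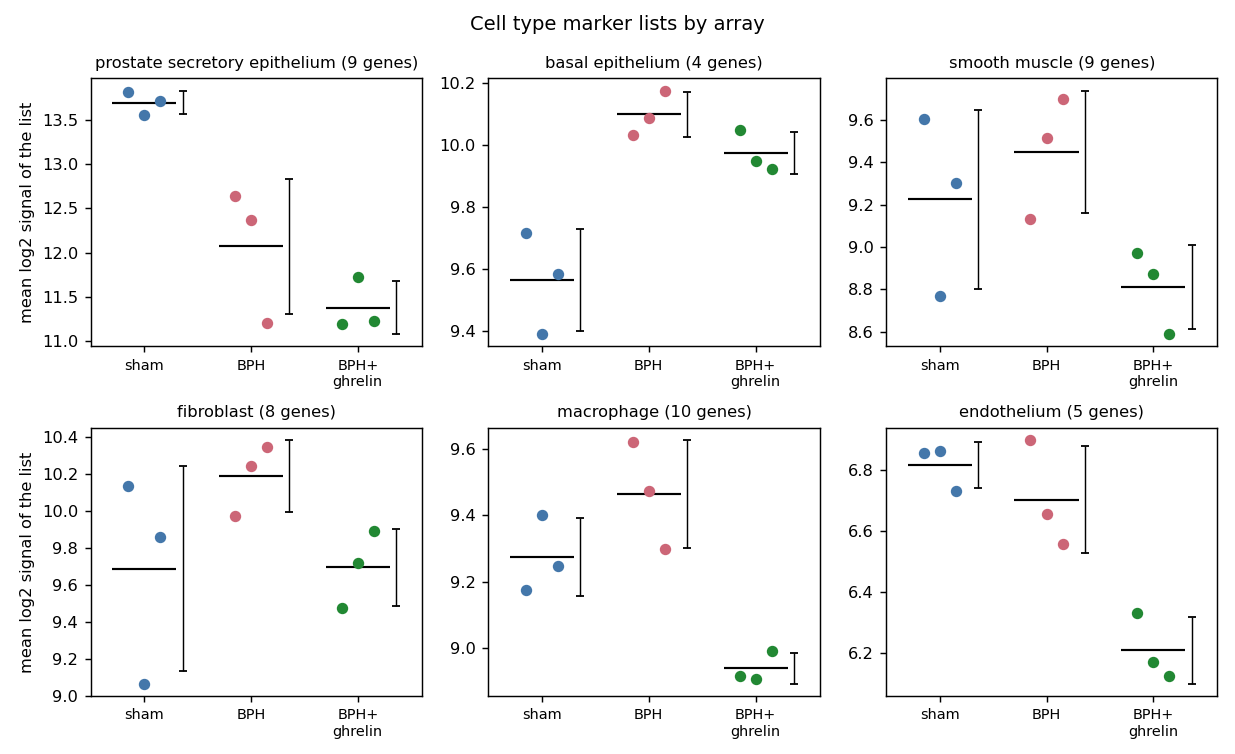
Mean log2 signal of the marker genes of 6 cell types (vertical axes, each with a scale of its own) in sham, BPH and BPH+ghrelin. Points are arrays (3 per group), horizontal lines are means and bars are SD. Secretory epithelium means are highest on the 3 sham arrays, and macrophage and endothelial means are lowest on the 3 BPH+ghrelin arrays.

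Of the 10 members, 6 were well above background on all 9 arrays. Those were Tgfb3, Tgfbr1, Tgfbr2, Inhba, Inhbb and Smad7. Tgfb2 was well above background on 8 arrays, and Tgfb1 and Tgfbr3 on 3 arrays each. Smad3 was not well above background on any array. A gene entered a test when no fewer than 3 of the 6 arrays of that comparison showed its probe well above background. This left 9 members in BPH against sham, 8 in BPH+ghrelin against BPH and 7 in BPH+ghrelin against sham.

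**Figure D2:**
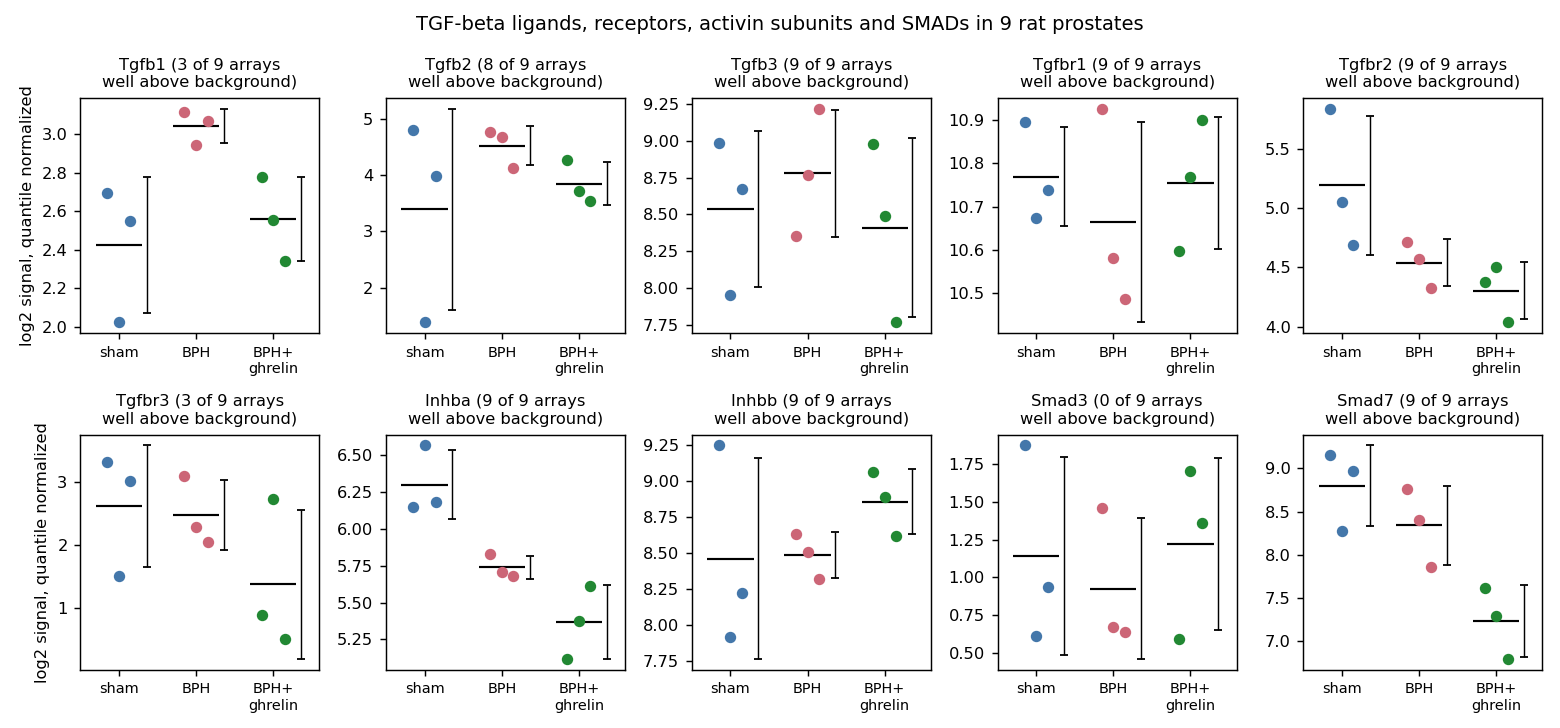
Log2 signal of each member (vertical axes, each with a scale of its own) on the 9 arrays, by group. Points are arrays, horizontal lines are means and bars are SD (n = 3). Smad7 and Inhba are lower on every BPH+ghrelin array than on every sham array, and Tgfb1 is highest on the 3 BPH arrays, where alone its probe was well above background.

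Among the ligands, Tgfb1 encodes the most widely expressed isoform. Its log2 signals were 2.69, 2.02 and 2.55 in sham, 3.11, 2.94 and 3.07 in BPH, and 2.78, 2.56 and 2.34 in BPH+ghrelin. The probe was well above background on the 3 BPH arrays and on none of the other 6, so that it could enter a comparison only through BPH. All BPH arrays lay above the arrays of both other groups. As the filter chose the gene by the group where it was high, its differences are given no test here. In the matrix of values deposited by the authors, by contrast, BPH was at -0.016 against sham and BPH+ghrelin at 0.15 against BPH on the log2 scale. The direction of Tgfb1 is therefore not settled by these arrays.

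Tgfb2 showed 4.82, 1.38 and 3.99 in sham, 4.77, 4.68 and 4.13 in BPH, and 4.28, 3.73 and 3.55 in BPH+ghrelin. The low value belongs to sham replicate 2, the array with the lowest raw signal and the only one where this probe was not well above background. Means differed by 1.13 between BPH and sham (SE 0.76, 2.19-fold, adjusted p 0.363), and by 0.12 without sham replicate 2, so that the difference above 2-fold rested on that array. The groups overlapped, and the other probe of Tgfb2 gave -0.23 in this comparison. Tgfb3, the isoform known from mesenchymal tissues, had 8.54 ± 0.53 (SD, n = 3) in sham, 8.78 ± 0.43 in BPH and 8.41 ± 0.61 in BPH+ghrelin. These groups overlapped, with log2 differences of 0.24 (95% confidence interval -0.63 to 1.12) between BPH and sham and -0.37 (-1.25 to 0.51) between BPH+ghrelin and BPH.

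Among the receptors, Tgfbr1, the signaling type I receptor, was the member with the smallest standard errors. Its mean log2 signals were 10.77 ± 0.11 in sham, 10.66 ± 0.23 in BPH and 10.76 ± 0.15 in BPH+ghrelin. The 95% confidence intervals of its 3 differences lay between -0.46 and 0.45, so that changes above 2-fold in either direction were outside these intervals.

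Tgfbr2, the type II receptor that binds the ligand, had values of 5.84, 5.05 and 4.69 in sham, 4.71, 4.57 and 4.32 in BPH, and 4.38, 4.50 and 4.04 in BPH+ghrelin. All BPH+ghrelin arrays lay below all sham arrays, whereas the highest BPH array lay slightly above the lowest sham array. The log2 difference was -0.89 between BPH+ghrelin and sham (SE 0.28, 0.541-fold, adjusted p 0.106) and -0.65 between BPH and sham (SE 0.28, adjusted p 0.189). Without sham replicate 1, these became -0.56 and -0.33, and with normexp they were -0.22 and -0.16. A second Tgfbr2 probe was not well above background on any array.

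Tgfbr3 (betaglycan), a coreceptor that presents Tgfb2 to the receptor complex and also binds inhibin, was well above background on sham replicates 1 and 3 and BPH replicate 1. Signals were 3.31, 1.51 and 3.01 in sham, 3.10, 2.29 and 2.04 in BPH, and 0.89, 2.72 and 0.51 in BPH+ghrelin. Only BPH against sham could be tested, with a difference of -0.14 (SE 0.66, adjusted p 0.912). No fold can be given for BPH+ghrelin, where the signal was not well above background on any array.

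Inhba encodes the beta A subunit of activin A, a growth inhibitor of prostate epithelial cells. It had log2 signals of 6.15, 6.57 and 6.18 in sham, 5.83, 5.71 and 5.68 in BPH, and 5.12, 5.38 and 5.61 in BPH+ghrelin. The 3 groups did not overlap with each other, with sham highest and BPH+ghrelin lowest. In BPH+ghrelin, Inhba was lower than in sham by a log2 difference of -0.93 (SE 0.17, 0.524-fold, limma adjusted p 0.0216). Differences between neighbouring groups did not pass the test, with -0.56 between BPH and sham (SE 0.17, 0.678-fold, adjusted p 0.0971) and -0.37 between BPH+ghrelin and BPH (SE 0.17, 0.773-fold, adjusted p 0.256).

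Inhbb encodes the beta B subunit, which forms activin B and inhibin B. Its brighter probe gave 9.25, 7.92 and 8.22 in sham, 8.63, 8.51 and 8.32 in BPH, and 9.06, 8.89 and 8.61 in BPH+ghrelin. Sham replicate 1 lay above all other arrays, and the groups overlapped in each comparison. The difference between BPH+ghrelin and sham was 0.39 (SE 0.32, adjusted p 0.50), which became 0.79 (adjusted p 0.0457) without sham replicate 1. The other Inhbb probe had means of 6.83, 6.86 and 6.84 in sham, BPH and BPH+ghrelin. The 3 groups overlapped at this probe.

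Smad7, the inhibitory Smad that recruits ubiquitin ligases to the receptor, showed 9.16, 8.27 and 8.97 in sham, 8.77, 8.41 and 7.86 in BPH, and 7.62, 7.28 and 6.79 in BPH+ghrelin. Every BPH+ghrelin array lay below every array of the other groups, while sham and BPH overlapped. Compared to sham, Smad7 was lower in BPH+ghrelin with a log2 difference of -1.57 (SE 0.33, 0.337-fold, limma adjusted p 0.0321). Compared to BPH, it differed by -1.11 (SE 0.33, 0.462-fold, unadjusted p 0.00903), which did not pass adjustment over all genes (adjusted p 0.120). The difference between BPH and sham was -0.46 (SE 0.33, adjusted p 0.389). Smad3, a signal-transducing Smad, cannot be described, as its log2 signals of 0.59 to 1.88 were not well above background on any array.

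By comparison, and leaving out Tgfb1, none of 8 members passed the adjusted threshold in BPH against sham (limma, 0 called), where 4.34% of all 19552 genes tested were called (2.16% higher and 2.18% lower in BPH). At an unadjusted p under 0.05, 1 of these 8 passed (Inhba), compared to 26.5% of all genes. Between BPH+ghrelin and BPH, 0 of 7 members were called by limma, again leaving out Tgfb1, with 1.48% of 19749 genes called (0.496% higher and 0.987% lower), and 1 member (Smad7) had an unadjusted p under 0.05, compared to 21.1% of all genes. In BPH+ghrelin against sham, 2 of 7 members were called (Inhba and Smad7, both lower), with 6.29% of 19197 genes called (2.99% higher and 3.30% lower). There, 3 members (Inhba, Smad7 and Tgfbr2) had an unadjusted p under 0.05, compared to 23.7% of all genes. These shares keep genes above background in only 1 of both groups. Without such genes, limma called 805 of 19295, 260 of 19561 and 1125 of 19013 in the 3 comparisons. An unadjusted p under 0.05 was then found for 5029, 4023 and 4406 genes. A difference of at least 2-fold was found for 1 member in each comparison (Tgfb2, Smad7 and Smad7), and for 8.16%, 6.11% and 7.41% of all genes. Groups did not overlap for 1, 2 and 3 of these members in the 3 comparisons, and for 31.3%, 39.2% and 30.4% of all genes tested. The latter comparison shares its arrays with the other 2, so that the 3 comparisons are not independent. The plot of differences shows the members side by side.

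**Figure D3:**
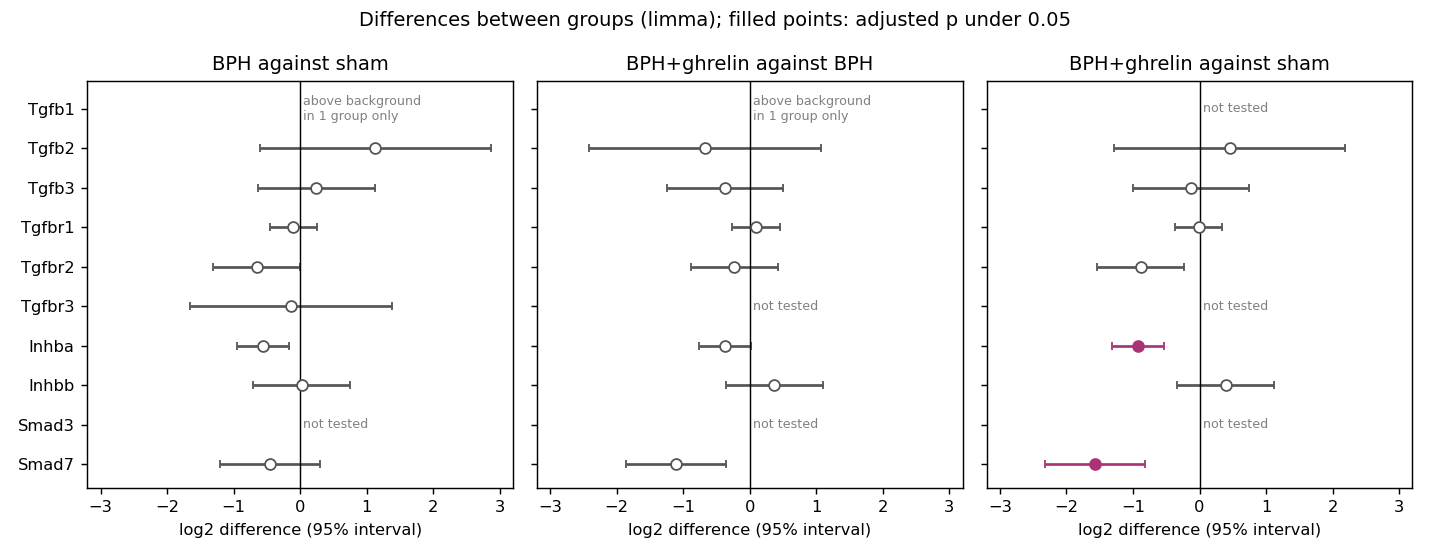
Log2 differences of the members (horizontal axes) in the 3 comparisons, with 95% confidence intervals from limma. Filled points passed an adjusted p of 0.05, which applies to Inhba (-0.93) and Smad7 (-1.57) in BPH+ghrelin against sham and to no other point (members well above background in only 1 of the groups compared have no point).

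Both calls depended on single arrays, while their direction did not. The Smad7 difference between BPH+ghrelin and sham was -1.39 (adjusted p 0.0539) without sham replicate 1, -1.49 (0.119) without sham replicate 3, and -1.76 (0.0576), -1.59 (0.116) and -1.34 (0.0875) without BPH+ghrelin replicates 1, 2 and 3. For Inhba, it was -0.99 (adjusted p 0.0724) without sham replicate 3, -0.81 (0.0658) without BPH+ghrelin replicate 1 and -0.94 (0.101) without BPH+ghrelin replicate 2. Without the 3 arrays that lay between the others, the differences were -1.51 for Smad7 (adjusted p 0.697) and -0.999 for Inhba (adjusted p 0.650), in a fit with 2 arrays per group. Among the arrays scanned together (2 per group), Smad7 was at -1.68 and Inhba at -0.86, and with scan as a block the adjusted p was 0.192 and 0.181. Between BPH+ghrelin replicate 1 and the 3 BPH arrays scanned with it, the differences were -0.73 for Smad7 and -0.62 for Inhba, without a test. Over all alternatives with a test, Smad7 was called in 8 of 17 and Inhba in 10 of 17, and neither changed sign, as the plot of settings shows.

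**Figure D4:**
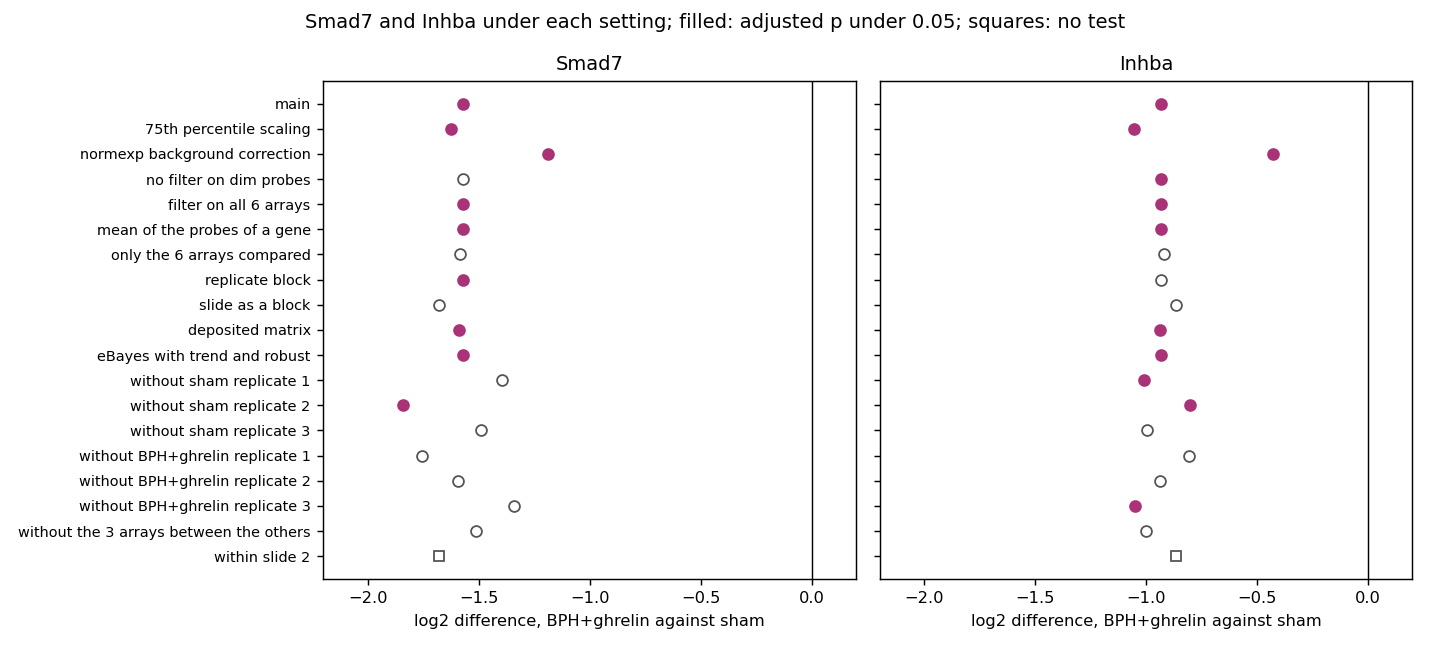
Log2 difference between BPH+ghrelin and sham (horizontal axes) of Smad7 and Inhba under each setting (vertical axis). Filled points have an adjusted p under 0.05, open points do not, and squares have no test. All points lie below 0, between -1.84 and -1.19 for Smad7 and between -1.05 and -0.43 for Inhba.

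Genes whose values ran most alike over the 9 arrays were sought among 11310 named genes, as a description over 9 arrays that share 3 groups. Inhba was most similar to Ube2k (Pearson r 0.984), Epha4 (0.984) and Gzma (0.974). Smad7 was most similar to Pxylp1 (0.992), Itpr1 (0.989) and Fkbp9 (0.980).

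Further genes of the pathway were taken from 5 lists with 90 genes, of which 79 were on the array. In BPH against sham, 3 of 73 genes tested were called, 1 higher and 2 lower, compared to 4.34% of all genes, and the median log2 difference was 0.24, compared to 0.04 over all genes. This median was 0.12 with scaling to the 75th percentile, where that of all genes was -0.09. The list median was 0.13 with normexp background correction, 0.15 without sham replicate 2 and 0.38 without sham replicate 1. Comparing BPH+ghrelin with BPH, 5 of 75 were called, 1 higher and 4 lower, compared to 1.48% of all genes. Leaving out genes above background in only 1 of both groups, negative differences were found for 54 of 74, compared to 9384 of 19561 over all genes, with medians of -0.31 and 0.02. With all 6 arrays above background, it was 52 of 70. In the same comparison, negative differences were found for 9 of 9 smooth muscle genes (median -0.55), 7 of 8 fibroblast genes (-0.51) and 9 of 10 macrophage genes (-0.55), whose part in the list values was not tested. The pathway lists share Acta2, Tagln and Cnn1 with the smooth muscle genes and Col1a1, Col1a2, Col3a1 and Dcn with the fibroblast genes. These counts are therefore partly of the same genes. With scaling to the 75th percentile, the median of the 75 genes was -0.26, compared to 0.096 over all genes. With normexp, the list median was -0.20. Comparing BPH+ghrelin with sham, 6 of 73 were called, 2 higher and 4 lower, compared to 6.29% of all genes. Leaving out Thbs1, above background in only 1 of both groups, 36 of 72 were negative. Their median was -0.013, compared to 0.04 over all genes. With Thbs1, the median was 0.022, and its sign also depended on the setting. It was -0.047 with scaling to the 75th percentile, where that of all genes was -0.0015. Without sham replicate 1 the list median was 0.16, and without sham replicate 2 it was -0.18. Lists are described here and were not tested as sets.

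Target genes of TGF-beta formed the largest list (29 of 30 genes on the array). Of 28 counted in BPH+ghrelin against BPH (without Cthrc1, which entered only through BPH), 23 had a negative difference (median -0.33), and Ccn2 and Vim were called, beside the shares of all genes and of marker genes given above. Some of those smooth muscle and fibroblast genes also belong to this target list. Ccn2 encodes connective tissue growth factor, a matricellular protein and classical target of TGF-beta. It had log2 signals of 10.81, 10.74 and 10.73 in sham, 11.38, 10.93 and 10.39 in BPH, and 9.18, 9.35 and 9.59 in BPH+ghrelin. Thus all BPH+ghrelin arrays lay below the other 6. Ccn2 fell by 1.53 against BPH (SE 0.24, adjusted p 0.0301) and fell by 1.39 against sham (SE 0.24, adjusted p 0.0170), both on the log2 scale.

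Vim (vimentin, an intermediate filament of mesenchymal cells) had 8.26, 7.67 and 8.05 in sham, 8.92, 8.72 and 8.52 in BPH, and 7.30, 7.38 and 7.64 in BPH+ghrelin. All BPH arrays exceeded the others, and Vim fell by 1.28 in BPH+ghrelin against BPH (SE 0.19, adjusted p 0.0256). Its differences from sham were 0.73 in BPH (adjusted p 0.0685) and -0.55 in BPH+ghrelin (adjusted p 0.121).

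Ccn1, which encodes the matricellular protein Cyr61, had the lowest adjusted p of the lists in both comparisons with sham. It was at 9.87, 9.70 and 9.75 in sham, 8.24, 7.89 and 7.50 in BPH, and 7.56, 7.33 and 7.16 in BPH+ghrelin. Sham arrays lay far above the other 6, while BPH and BPH+ghrelin overlapped. Ccn1 fell by 1.90 in BPH (SE 0.20, 0.268-fold, adjusted p 0.00371) and fell by 2.42 in BPH+ghrelin (SE 0.20, 0.186-fold, adjusted p 0.000737) against sham. It remained called with each single array left out in turn, but not without the 3 arrays that lay between the others (-1.92 and -2.43, adjusted p 0.419 and 0.204), and in BPH against sham also not with scan as a block (-2.23, adjusted p 0.308). Ccn1 was thus below sham on all 6 arrays of castrated rats, whereas Ccn2 was below sham on the 3 BPH+ghrelin arrays and on BPH replicate 3 only.

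Timp1, an inhibitor of matrix metalloproteinases, went in the opposite direction. Signals were 11.81, 11.15 and 11.56 in sham, 12.12, 12.27 and 12.45 in BPH, and 12.72, 12.66 and 12.66 in BPH+ghrelin, without overlap between the groups. Timp1 rose by 1.17 in BPH+ghrelin against sham (SE 0.18, 2.25-fold, adjusted p 0.0116). Between BPH and sham, the difference was 0.77 (adjusted p 0.0530).

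**Figure D5:**
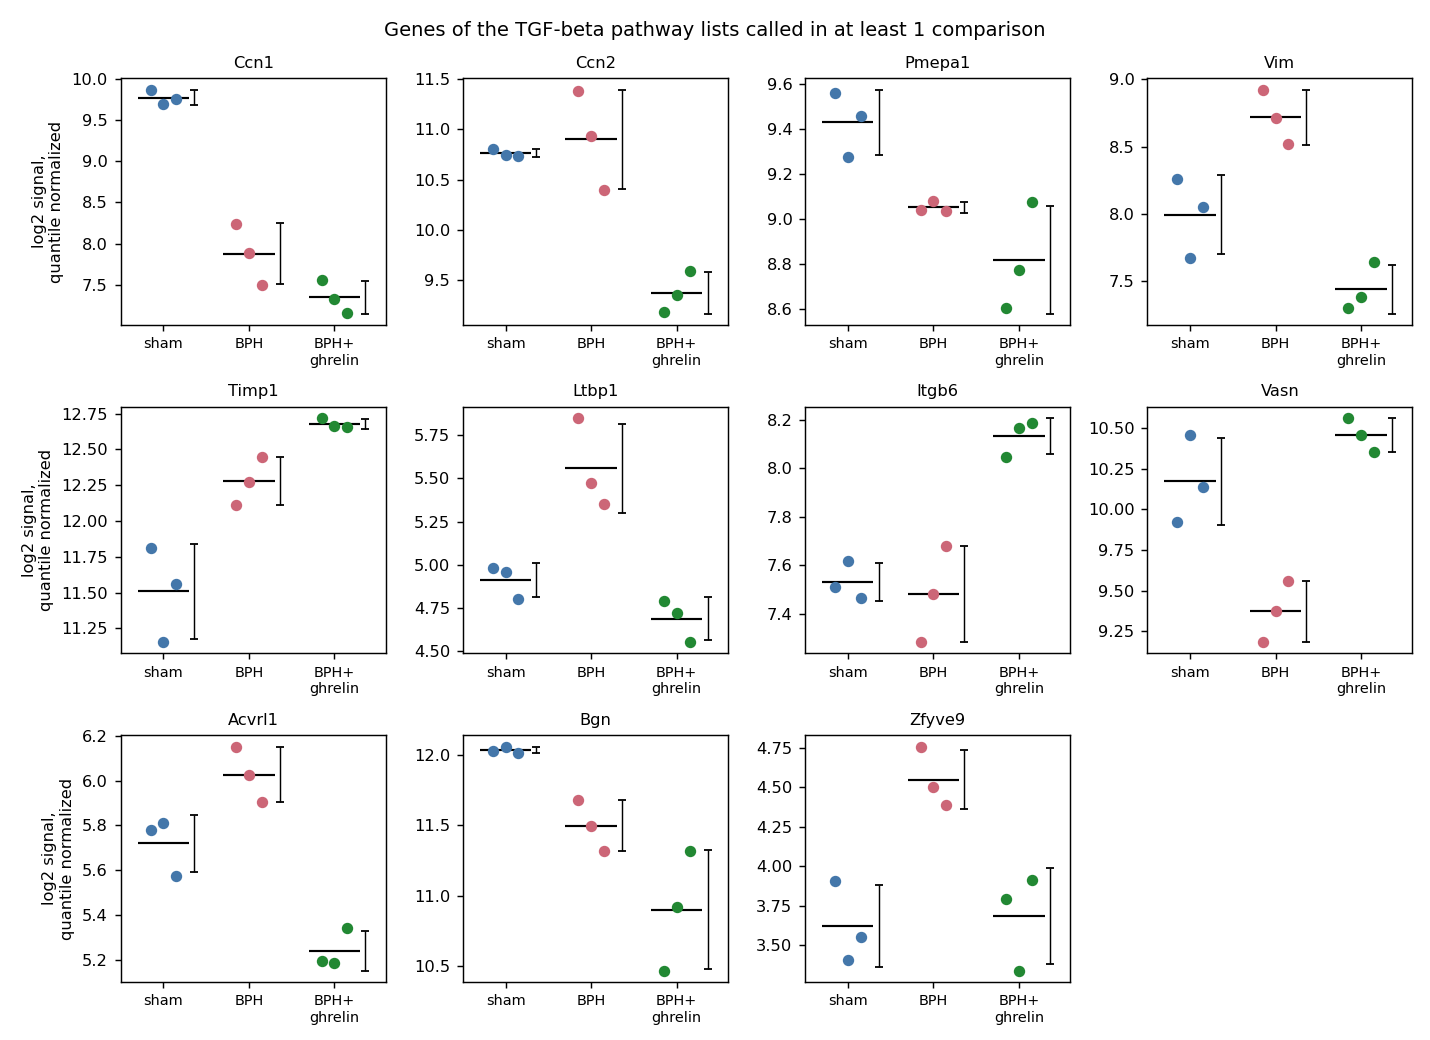
Log2 signal (vertical axes, each with a scale of its own) of the 11 genes of the pathway lists that were called in at least 1 comparison, by group. Points are arrays, horizontal lines are means and bars are SD (n = 3). Ccn2, Vim, Ltbp1 and Acvrl1 are lower on every BPH+ghrelin array than on every BPH array, and Ccn1 is lower on all BPH and BPH+ghrelin arrays than on all sham arrays.

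Proximal promoters of Inhba, Ccn2 and Ccn1 are shown to place motifs known from TGF-beta targets beside a called member and 2 called genes of the target list. The promoter of Smad7 was not analysed here. The 250 bases before the annotated start were taken from RefSeq (build GRCr8), 5′ to 3′ on the strand of the gene, with matches in capitals. Motifs searched on both strands were the SMAD box CAGAC (or GTCTG), the AP-1 site TGANTCA, the TEAD site GGAATG (or CATTCC), the CCAAT box CCAAT (or ATTGG) and the TATA box TATAAA (or TTTATA).
Inhba (chr17:53804509-53804758, minus strand): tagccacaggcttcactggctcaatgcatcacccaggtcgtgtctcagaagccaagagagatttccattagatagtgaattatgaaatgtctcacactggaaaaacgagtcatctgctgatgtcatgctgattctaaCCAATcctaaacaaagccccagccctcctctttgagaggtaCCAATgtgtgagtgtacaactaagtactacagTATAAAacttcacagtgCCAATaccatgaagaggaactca
Ccn2 (chr1:22624615-22624864, minus strand): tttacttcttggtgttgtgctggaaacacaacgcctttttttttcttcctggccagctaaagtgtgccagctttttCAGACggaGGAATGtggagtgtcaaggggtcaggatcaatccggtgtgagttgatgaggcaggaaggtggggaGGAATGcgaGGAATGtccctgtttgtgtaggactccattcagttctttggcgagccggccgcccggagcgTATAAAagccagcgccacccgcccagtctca
Ccn1 (chr2:237225690-237225939, minus strand): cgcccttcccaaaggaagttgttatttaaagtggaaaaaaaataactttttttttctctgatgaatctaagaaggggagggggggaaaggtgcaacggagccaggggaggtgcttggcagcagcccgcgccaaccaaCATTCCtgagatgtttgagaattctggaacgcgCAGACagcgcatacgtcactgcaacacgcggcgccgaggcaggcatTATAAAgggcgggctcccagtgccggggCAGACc

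Inhba held 3 CCAAT boxes and 1 TATA box, and no SMAD box, AP-1 site or TEAD site in these letters. Ccn2 held 1 SMAD box, 3 TEAD sites and 1 TATA box, and Ccn1 held 2 SMAD boxes, 1 TEAD site and 1 TATA box. Of 33469 promoter windows of this length, 42.9% held a SMAD box, 6.34% an AP-1 site, 12.1% a TEAD site, 34.0% a CCAAT box and 12.9% a TATA box. Among the other members scanned, Tgfbr1 and Tgfbr2 held 2 CCAAT boxes each, and Tgfb1, Tgfb2, Tgfb3, Tgfbr3, Inhbb and Smad3 held none of the 5 motifs in this window.

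Genes that store and activate the ligands (13 of 15 on the array) gave 0 calls by limma of 12 tested in BPH against sham. They gave 1 call of 13 in BPH+ghrelin against BPH and 2 of 12 in BPH+ghrelin against sham. Thbs1, above background in only 1 group, was left out of the latter. Over all genes, the shares called were 4.34%, 1.48% and 6.29%. Ltbp1, a latent TGF-beta binding protein that anchors latent ligand in the matrix, was at 4.98, 4.96 and 4.80 in sham, 5.85, 5.48 and 5.35 in BPH, and 4.79, 4.72 and 4.55 in BPH+ghrelin. BPH arrays lay above all others, and Ltbp1 fell by 0.87 in BPH+ghrelin against BPH (SE 0.16, 0.548-fold, adjusted p 0.0427), compared to -0.31 (adjusted p 0.0658) with normexp. Between BPH and sham, it differed by 0.65 (adjusted p 0.0574). Itgb6, a subunit of an epithelial integrin that activates latent TGF-beta, was at 7.51, 7.62 and 7.46 in sham, and 8.05, 8.16 and 8.19 in BPH+ghrelin. It rose by 0.60 (SE 0.13, 1.52-fold, adjusted p 0.0378). Bgn (biglycan), a proteoglycan that binds TGF-beta, was at 12.03, 12.06 and 12.02 in sham and 10.47, 10.92 and 11.32 in BPH+ghrelin. At this probe it fell by 1.13 (SE 0.21, adjusted p 0.0220), whereas the other Bgn probe had means of 5.58 in sham and 5.92 in BPH+ghrelin, in the opposite direction.

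Coreceptors and receptor adaptors (10 of 10 tested) gave 2, 2 and 1 calls in BPH against sham, BPH+ghrelin against BPH and BPH+ghrelin against sham, compared to 4.34%, 1.48% and 6.29% of all genes. Acvrl1 (ALK1), a type I receptor of endothelial cells, had 5.78, 5.81 and 5.58 in sham, 6.15, 6.02 and 5.90 in BPH, and 5.19, 5.19 and 5.34 in BPH+ghrelin. It fell by 0.79 in BPH+ghrelin against BPH (SE 0.13, 0.579-fold, adjusted p 0.0318), alongside the endothelial genes, of which 4 of 5 had negative differences (Tek, above background in BPH only, left out) and Cldn5, a tight junction gene, was called (-1.35, adjusted p 0.0273). The part of endothelial RNA in the Acvrl1 difference was not tested.

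Vasn (vasorin), a protein that binds TGF-beta, had 9.92, 10.46 and 10.14 in sham, 9.18, 9.37 and 9.56 in BPH, and 10.56, 10.46 and 10.35 in BPH+ghrelin. All BPH arrays were below the others. Vasn fell by 0.80 in BPH against sham (SE 0.17, adjusted p 0.0408) and rose by 1.08 in BPH+ghrelin against BPH (SE 0.17, 2.12-fold, adjusted p 0.0301). Its other probe had means of 5.18, 5.20 and 5.50, without the decrease in BPH. Zfyve9 (SARA), which presents Smads to the receptor, had 3.91, 3.41 and 3.55 in sham and 4.76, 4.50 and 4.39 in BPH, and it rose by 0.93 (SE 0.20, adjusted p 0.0449), compared to 0.18 (adjusted p 0.189) with normexp. Pmepa1, a TGF-beta target that sequesters Smads, had 9.56, 9.27 and 9.46 in sham and 8.60, 8.77 and 9.07 in BPH+ghrelin, and it fell by 0.61 (SE 0.15, adjusted p 0.0492).

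The activin and inhibin system (13 of 15 genes on the array) and the other Smads with their regulators (14 of 20) gave 0 calls by limma in each comparison. At an unadjusted p under 0.05, 1 of 10, 1 of 10 and 3 of 9 genes tested of the activin list passed in BPH against sham, BPH+ghrelin against BPH and BPH+ghrelin against sham, and 5 of 12, 4 of 13 and 3 of 13 of the Smad list. Over all genes, the shares were 26.5%, 21.1% and 23.7%. Acvr1c (ALK7), a type I receptor for activin B and Nodal that is prominent in fat, was at 8.43, 7.19 and 8.12 in sham, 6.57, 6.19 and 5.45 in BPH, and 1.52, 5.00 and 5.99 in BPH+ghrelin. Differences from sham were -1.84 in BPH (adjusted p 0.278) and -3.74 in BPH+ghrelin (adjusted p 0.0683), where BPH+ghrelin replicate 1 was far below the rest. Without that array, the latter was -2.41. It was called with normexp background correction (-1.51, adjusted p 0.0181), as well as with scaling (0.0486), the mean of the probes (0.0469) and the deposited matrix (0.0449). Adipocyte genes (4 of 6 usable) had mean log2 signals of 4.18, 8.24 and 6.74 in sham, 8.60, 8.05 and 7.28 in BPH, and 3.26, 7.28 and 8.33 in BPH+ghrelin. Hence BPH+ghrelin replicate 1 was the lowest array for these genes too, while sham replicate 1, the next lowest, had the highest Acvr1c signal. The part of adipocyte RNA in the Acvr1c difference was not tested.

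Further genes differed by at least 2-fold without overlap between groups but were not called. Zeb2, a Smad-binding repressor, differed from sham by -2.10 in BPH (adjusted p 0.102) and -1.82 in BPH+ghrelin (adjusted p 0.140). Id1, an inhibitor of differentiation induced by bone morphogenetic proteins, differed from sham by -2.11 in BPH+ghrelin (adjusted p 0.0620). It was called with scaling (-2.15, adjusted p 0.0497) and without sham replicate 2 (-2.82, adjusted p 0.00223), and without that array also in BPH against sham (-1.89, adjusted p 0.0130). In the main processing, Cthrc1, a secreted protein of activated stroma, was at least 2.27-fold lower in BPH+ghrelin than in BPH, as a description. Over the alternatives, its log2 difference ranged from -2.80 to -0.27, so that this bound does not hold under every setting. No test is given, since the probe was well above background on the 3 BPH arrays and no BPH+ghrelin array and entered only through BPH. Its log2 signals were 3.81, 3.82 and 4.03 in BPH and 2.34, 0.79 and 3.23 in sham, where 1 array was well above background, so that no test is given there either. Between BPH and sham, the difference was 1.06 for Snai2 (adjusted p 0.175), a transcription factor of mesenchymal cells, but 0.48 without sham replicate 2 and 0.35 with normexp. Tgif2, a repressor that binds Smads, differed by 1.06 in BPH+ghrelin against BPH (adjusted p 0.0612), and Ltbp2, a matrix protein, by -1.32 (adjusted p 0.209). Both were called with only the 6 arrays compared (adjusted p 0.0128 and 0.0224), and Tgif2 also with scaling (0.0331) and normexp (0.0297).

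Calls in these lists also depended on the setting and on single arrays. In BPH against sham, Zfyve9 was called in 3 of 16 alternatives with a test, and Vasn in 5 of 17. In BPH+ghrelin against BPH, it was 9 of 17 for each of Ccn2, Vim and Acvrl1, 8 for Vasn and 6 for Ltbp1. For BPH+ghrelin against sham, it was 16 for Ccn1, 13 for Timp1, 11 for Ccn2, 10 for Bgn, and 7 each for Itgb6 and Pmepa1. Differences over 1.5 times smaller with normexp also included those of Inhba (-0.43 in BPH+ghrelin against sham, adjusted p 0.0273), Acvrl1 (-0.32 in BPH+ghrelin against BPH, adjusted p 0.0408), Zeb2 (-1.12 in BPH against sham) and Ltbp2 (-0.58 in BPH+ghrelin against BPH). Without BPH replicate 2, all 5 calls of BPH+ghrelin against BPH were lost, while the differences were 1.09 for Vasn, -0.79 for Acvrl1, -1.52 for Ccn2, -0.91 for Ltbp1 and -1.29 for Vim. The adjusted p values were 0.167 for Vasn, 0.181 for Acvrl1, 0.163 for Ccn2, 0.197 for Ltbp1 and 0.154 for Vim. The calls were also lost without BPH replicate 1 or any of the BPH+ghrelin replicates, where adjusted p ranged from 0.0612 (Vim, without BPH+ghrelin replicate 3) to 0.175 (Ltbp1, without BPH+ghrelin replicate 2). The scan block leaves BPH+ghrelin replicate 1 alone beside BPH. Its differences were 1.19 for Vasn, -0.84 for Acvrl1, -1.72 for Ccn2, -0.76 for Ltbp1 and -1.42 for Vim. In BPH against sham, Vasn and Zfyve9 lost their calls without sham replicate 2 (adjusted p 0.0529 and 0.0728), without sham replicate 3 (0.129 and 0.149) and without BPH replicates 1 (0.0864 and 0.0964), 2 (0.168 and 0.168) or 3 (0.0720 and 0.0896).

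Against sham, the BPH+ghrelin calls other than Ccn1 were lost without sham replicate 3, with adjusted p values of 0.0718 for Ccn2, 0.0874 for Bgn, 0.146 for Itgb6, 0.160 for Pmepa1 and 0.0533 for Timp1. They were equally lost without BPH+ghrelin replicate 2, at 0.0835, 0.0978, 0.151, 0.178 and 0.0644 in the same order. Without BPH+ghrelin replicate 1, Ccn2 (0.0621), Itgb6 (0.0836) and Pmepa1 (0.144) lost theirs. Without sham replicate 1, this applied to Itgb6 (0.0562) and Pmepa1 (0.0782), and without BPH+ghrelin replicate 3 to Itgb6 (0.107). Other genes gained calls without 1 array. The list genes called rose to 15 in BPH against sham without sham replicate 1, to 8 in BPH+ghrelin against BPH without BPH replicate 3, and to 13 in BPH+ghrelin against sham without sham replicate 2. Among the genes named here, those gaining a call in BPH against sham were Timp1 (adjusted p 0.0208), Vim (0.0309), Ltbp1 (0.0444) and Snai2 (0.0477) without sham replicate 1, and Id1 without sham replicate 2. Itgb6 (0.0440) gained one in BPH+ghrelin against BPH without BPH replicate 3. Compared to sham, BPH+ghrelin gained Tgif2 (0.0359) without sham replicate 1, and Vim (0.0412), Ltbp2 (0.0319) and Id1 without sham replicate 2. Without the 3 arrays that lay between the others, 0 genes of the lists were called by limma in any comparison.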

How the data were processed

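Total RNA of 9 rat prostates (3 sham, 3 BPH, 3 BPH+ghrelin) had been labeled with Cy3 and hybridized to Agilent one-colour arrays. For each array, the authors deposited spot intensities from Feature Extraction 11.0.1.1, with background subtracted but without normalization over arrays. As an alternative, log2 values from a deposited matrix were used, which the authors had quantile normalized in GeneSpring GX. Groups were taken from the sample labels.

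Outlier spots were removed and spots of a probe were averaged, which left 30356 of 30367 probes. Log2 values were quantile normalized over 9 arrays. Accessions were matched to RefSeq genes of assembly GRCr8, by which 17998 probes (59.3%) obtained a symbol. A gene was represented by its brightest passing probe. Groups were compared in R 4.3.3 with limma 3.58.1 (lmFit and eBayes, all 9 arrays in 1 fit of 3 groups), with Benjamini-Hochberg adjustment over all genes tested, and genes under 0.05 are referred to as called. With 3 arrays per group, an exact permutation test (two-sided) reaches 0.1 at best. The number of arrays limits the precision. A gene not well above background on any array of 1 group is given as a bound against the lowest signal well above background on each array. The tests were checked on simulated data with independent noise on each array, so that the independence of the real arrays was not checked.

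Members of the pathway lists were named when called in a comparison, or when they were among the 4 with the largest difference per comparison and direction of those at least 2-fold different without overlap. For called members, the 3 genes with the highest Pearson correlation were named. Other probes of called genes are mentioned where they disagree. Of the lists, 1 gene is not reported here and was left out of their counts. The members and the lists were chosen with earlier results of these data known. Processing was varied by normexp (offset 50, on median signals), by 75th percentile scaling, by 2 other filters, the mean of the probes, only the 6 arrays compared, blocks for replicate number or scan, use of the authors' matrix, a robust eBayes with trend, omission of each array, and other call rules. The other probe of a member and leaving out 3 arrays together were added after seeing the data.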

Additional observations from a re-analysis of the deposited data

How the results depend on the processing

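Between BPH+ghrelin and sham, the Smad7 and Inhba differences were negative under every alternative run, while their calls were not kept under each. The number of members called was 2 with all arrays. It was 0 with only the 6 arrays compared, with scan as a block and without the 3 arrays that lay between the others, 1 without the filter on dim probes and with the replicate block, 1 by a 2-fold rule without a test, and 0 to 2 when single arrays were left out. In BPH against sham and in BPH+ghrelin against BPH, 0 members were called by limma, compared to 1 in each by the 2-fold rule (Tgfb2 and Smad7), which 8.16% and 6.11% of all genes met. Single arrays left out gave 0 to 1 members in BPH against sham, where the 1 was Tgfb1, which entered only through BPH and is given no test, and 0 in BPH+ghrelin against BPH.

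Same-numbered arrays did not deviate together, with correlations of -0.15 to 0.07 in 8 of 9 pairs and 0.301 in the other, so that the numbers were not taken to pair the animals. With the replicate block, the number of genes called changed from 849 to 242 in BPH against sham, from 293 to 20 in BPH+ghrelin against BPH and from 1207 to 462 in BPH+ghrelin against sham. In the pathway lists it changed from 3 to 1, from 5 to 0 and from 6 to 2. With the replicate block, Smad7 was still called against sham (adjusted p 0.0411), and Inhba was not (0.0587).

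In BPH against sham, the genes called were 533 without the filter on dim probes, 181 with only the 6 arrays, 2 with scan as a block, 3 without the 3 arrays between the others, and 119 (without BPH replicate 2) to 3082 (without sham replicate 1) with single arrays left out. The list genes called were 5 with normexp, 1 without the filter, 6 with the filter on all 6 arrays, 1 with only the 6 arrays, 0 with scan as a block, 5 with the deposited matrix, 0 without the 3 arrays, 25 at an unadjusted p and 1 to 15 with single arrays left out. The genes called in BPH+ghrelin against BPH were 502 with scaling to the 75th percentile, 188 without the filter, 2106 with only the 6 arrays, 2 with scan as a block, 0 without the 3 arrays, and 3 (without BPH replicate 2) to 396 (without BPH replicate 3). List genes called were 8 with scaling, 13 with only the 6 arrays, 0 with scan as a block, 0 without the 3 arrays, 27 at an unadjusted p and 0 to 8 with single arrays left out. In the comparison of BPH+ghrelin with sham, the genes called were 85 with scan as a block, 2 without the 3 arrays, and 225 (without BPH+ghrelin replicate 2) to 1925 (without sham replicate 2). List genes called were 1 with scan as a block, 0 without the 3 arrays, 22 at an unadjusted p and 1 to 13 with single arrays left out. Unadjusted p values without the 3 arrays passed 0.05 for 1185, 832 and 1340 genes in the 3 comparisons.

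Scaling to the 75th percentile moved the median of all genes in BPH against sham from 0.04 to -0.09. It changed the split of higher and lower calls from 422 and 427 to 287 and 610 in that comparison, and from 98 and 195 to 238 and 264 in BPH+ghrelin against BPH. With only the 6 arrays, the split in BPH against sham was 39 and 142.

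No fit that turned a sign called the gene it turned. In BPH against sham, the sign changed for Tgfbr3 (0.022) and Inhbb (-0.029) with normexp; Tgif2 (0.21) with the mean of the probes; Tgfb3 (-0.54), Tgfbr1 (0.12), Tgfbr3 (0.79), Inhbb (-0.40), Acvr1c (2.24), Bgn (0.10) and Itgb6 (0.045) with scan as a block; Tgfb1 (-0.016) with the deposited matrix; Tgfb2 (-0.23) at its other probe; and Tgfbr3 (0.15) and Inhbb (-0.10) without the 3 arrays. As no scan held both BPH and sham arrays, the scan block linked these groups only through BPH+ghrelin arrays. Its differences between BPH and sham are therefore indirect. That of Acvr1c ran through BPH+ghrelin replicate 1, where its log2 signal was 1.52. Leaving out single arrays gave ranges across 0 for Tgfbr3 (-0.68 to 0.21), Tgfb3 (-0.048 to 0.47), Inhbb (-0.25 to 0.42), Ccn2 (-0.098 to 0.39) and Itgb6 (-0.15 to 0.050). The sign changed in BPH+ghrelin against BPH for Tgfb3 (0.20), Tgfbr1 (-0.068) and Zeb2 (-0.045) with scan as a block, Tgfb1 (0.15) with the deposited matrix and Inhbb (-0.020) at its other probe, and Zeb2 ranged from -0.45 to 0.81 with single arrays left out. Against sham, it changed in BPH+ghrelin for Tgfbr1 (0.048) and Zfyve9 (-0.095) with scaling, Tgfb2 (-0.017) with normexp, Tgfb2 (-0.070) with the mean of the probes, Tgfbr1 (0.050) and Zfyve9 (-0.031) with scan as a block, and Tgfb2 (-0.60) at its other probe. Single arrays left out gave Tgfb3 -0.42 to 0.20, Tgfbr1 -0.087 to 0.066, Ltbp2 -1.11 to 0.085, Tgfb2 -0.55 to 1.16 and Zfyve9 -0.056 to 0.23. Ltbp2 was called without sham replicate 2 (adjusted p 0.0319).

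Fewer samples were tested where arrays were left out. The scan block leaves BPH+ghrelin replicate 1 as the only array of its group beside BPH. Other causes were not tested. Signals near background limit Tgfb1, Tgfb2, Tgfbr3 and Cthrc1, and Smad3 cannot be judged.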
